A study of Mus musculus with 18 samples.

Results

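The RNAs described are long noncoding RNAs that stay in the nucleus or carry small RNAs, chosen by name. They are *Malat1* and *Neat1*, the snoRNA hosts *Gas5*, *Snhg1*, *Snhg12* and *Snhg15*, and the miRNA hosts *Mir155hg*, *Mir22hg*, *Mir142hg* and *Mir17hg*. An entry of the table was a member when a symbol it carried was one of these 10 names, and 7 of the 10 were found in this way among 62197 entries, of which 37020 carry no symbol. *Neat1*, *Mir142hg* and *Mir17hg* were not found by symbol. At the GENCODE position of each in GRCm39 lay 1 main entry without a symbol, at chr19:5874736-5895511 for *Neat1*, chr11:87646403-87648096 for *Mir142hg* and chr14:115280311-115284159 for *Mir17hg*. These 3 entries are called the *Neat1* locus, the *Mir142hg* locus and the *Mir17hg* locus below, are described beside the members, and are not counted among the 7. The entry of *Malat1* carries the symbol Mascrna as well.

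The study examined how a change of cell shape alters dendritic cells (DCs), and what cytosolic phospholipase A2 (cPLA_2_), encoded by *Pla2g4a*, contributes. The data are bulk RNA-seq of mouse DCs grown for 10 days from bone marrow with GM-CSF from J558 supernatant, in 6 conditions of 3 libraries. Nonconfined cPLA_2_ WT and cPLA_2_ KO cells had no treatment. Confined cPLA_2_ WT and cPLA_2_ KO cells were held under a ceiling at a height of 3 µm, and their labels give a time of 4 h. LPS-treated cPLA_2_ WT and cPLA_2_ KO cells received 100 ng ml-1 lipopolysaccharide for 30 min according to their labels, were washed and were taken on the next day, so agent and time cannot be told apart between LPS and confinement. The cPLA_2_ KO mice carried floxed *Pla2g4a* and *Itgax-cre*, on a C57BL/6 background according to the Methods. The deletion therefore depends on *Itgax* promoter activity, and cells of the culture without it keep the gene. Whether cPLA_2_ WT mice carried the Cre, and how many mice stand behind each library, were not given in the labels. The protocol text on LPS stands in the labels of all 18 libraries, and LPS was taken as given only where title and treatment name it. A legend calls the replicates biological, but which cultures or animals they came from was not given for each library, and p-values measure the spread between these libraries.

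*Malat1* and *Neat1* are transcribed side by side and are retained in the nucleus, *Malat1* at nuclear speckles rich in splicing factors and *Neat1* as the scaffold of paraspeckles. A snoRNA host is spliced to an RNA with little or no coding capacity while snoRNAs, which guide the modification of ribosomal RNA, are cut from its introns, and several spliced hosts are removed by nonsense-mediated decay during translation. A miRNA host is cut by Drosha at its hairpin, and *Mir155hg* is known in macrophages and DCs for its rise after Toll-like receptor signalling. The libraries were poly(A)-selected, so the values are those of host transcripts, and mature miRNAs and snoRNAs were not analysed here.

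The deposited values are gene counts that the authors divided by a size factor for each library, called normalized counts here, with no scaling for gene length. Whole reads recovered from them ranged from 33027230 to 61300021 per library with a median of 40950398, and the smallest number of reads on a member in any library was 117, on *Snhg12*. Genes entered the tests with 10 or more normalized counts in 3 or more libraries, which held for 17875 genes, for all 7 members and for the 3 loci. Differences are log2 fold changes of (normalized count + 1) from limma with Benjamini-Hochberg adjustment over all genes tested, and a gene was called at an adjusted p under 0.05. The mean normalized total per library was 34125100 in nonconfined cPLA_2_ WT cells, 34932739 in nonconfined cPLA_2_ KO cells, 39890270 in confined cPLA_2_ WT cells and 35818964 in confined cPLA_2_ KO cells. It was 48718670 in the libraries labelled LPS cPLA_2_ WT and 48721816 in those labelled LPS cPLA_2_ KO. Scaling to the same total per library therefore lowers fold changes against nonconfined cells wherever the total is higher.

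The size of that shift, as the median log2 fold change over all genes under the same total beside the authors' scaling, was -0.23 beside -0.0055 for confined against nonconfined cPLA_2_ WT cells. For LPS against nonconfined cells it was -0.47 beside 0.031 in cPLA_2_ WT and -0.44 beside 0.024 in cPLA_2_ KO. For confined cPLA_2_ KO against confined cPLA_2_ WT cells it was 0.19 beside 0.041, for the interaction of confinement and genotype 0.24 beside 0.051, and for confined against LPS-treated cPLA_2_ WT cells 0.26 beside -0.020. The share of calls that were higher moved from 49.8% to 32.7% for confined cPLA_2_ WT cells, from 39.5% to 70.7% for the interaction and from 47.7% to 69.7% for confined cPLA_2_ KO against cPLA_2_ WT cells. It moved from 53.8% to 42.0% for nonconfined cPLA_2_ KO against cPLA_2_ WT cells, from 44.2% to 75.0% for confined against LPS-treated cPLA_2_ WT cells, and from 53.1% to 25.5% and from 52.6% to 26.2% for LPS in cPLA_2_ WT and cPLA_2_ KO. Calls that move with this scaling, and values that change sign, are given with the member or locus.

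The targeted gene and the Y-linked genes were read in every library before the members. *Pla2g4a* had 697, 686 and 770.4 normalized counts in nonconfined cPLA_2_ WT and 548, 542 and 533 in nonconfined cPLA_2_ KO libraries, 1369, 1430.3 and 1321 in confined cPLA_2_ WT ones and 923, 871 and 919.5 in confined cPLA_2_ KO libraries. It was thus lower in each cPLA_2_ KO library of these treatments, while reads on the deleted part cannot be told apart from reads on the rest of the gene. In the libraries labelled LPS cPLA_2_ WT it had 1005, 969 and 967, and in those labelled LPS cPLA_2_ KO 1065, 1032 and 1028, so here the label cPLA_2_ KO did not go with a lower value. The limma log2 difference between cPLA_2_ KO and cPLA_2_ WT was -0.41 (adjusted p = 0.000190) in nonconfined cells, -0.60 (adjusted p = 3.81e-08) in confined cells and 0.087 (adjusted p = 1.00) between the LPS labels.

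The sum of the Y genes *Ddx3y*, *Eif2s3y*, *Kdm5d* and *Uty* was 4.57, 1.71 and 2.95 in nonconfined cPLA_2_ WT, 1.93, 1.72 and 2.37 in confined cPLA_2_ WT, 1748, 1785 and 1718 in nonconfined cPLA_2_ KO and 1868, 1789 and 1837 in confined cPLA_2_ KO libraries. Genotype and sex therefore cannot be told apart in these 12 libraries. The sum was 2329.9, 3.66 and 1271 in replicates 1, 2 and 3 labelled LPS cPLA_2_ WT and 4.24, 2589 and 1426 in those labelled LPS cPLA_2_ KO, so cPLA_2_ WT replicates 1 and 3 and cPLA_2_ KO replicate 1 go against the pattern of the other treatments. The sums of the replicates 3, of either label, lie between the low and the high ones, so placing cPLA_2_ KO replicate 3 with its label is less sure than for cPLA_2_ KO replicate 2. In these 2 libraries the eosinophil marker sum was 34236 and 34932, between 25150.3 and 24999 in the libraries with low Y sums and 43143 and 42981 in the other 2, and whether they hold cells of both kinds was not tested. The mean chi-square per gene between the reads of a pair of libraries ranged from 4.11 to 18.8 within the nonconfined and confined groups. Among LPS libraries it was 10.8 to 50.3 between those with the same label, and 5.46 to 46.2 over the 9 pairs with different labels. The lowest of the latter were 5.46 between LPS cPLA_2_ WT replicate 2 and LPS cPLA_2_ KO replicate 1, 6.64 between the replicates 3 and 13.7 between LPS cPLA_2_ WT replicate 1 and LPS cPLA_2_ KO replicate 2. The LPS libraries are therefore called by their labels, and lists of other genes and levels per kilobase are given as labelled only. For members and loci, tests that rest on the LPS libraries are also given without the 3 libraries whose Y genes go against the label. This leaves 1 library labelled cPLA_2_ WT, assumed to vary like the other groups, and 2 labelled cPLA_2_ KO. This setting, and a fit with the 6 LPS libraries as 1 group, were chosen after seeing the data.

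All 8 DC markers examined were detected, with *Cd74* the most abundant and *Flt3* the least, and none was at 0 in any library. Their summed normalized counts averaged 430301 in nonconfined cPLA_2_ WT cells, 513452 in nonconfined cPLA_2_ KO cells, 401603 in confined cPLA_2_ WT cells, 361581 in confined cPLA_2_ KO cells, and 601399 and 605200 under the labels LPS cPLA_2_ WT and LPS cPLA_2_ KO. *Cd74*, *H2-Ab1* and *H2-Aa* made up most of each sum. With confinement 2 of the 8 were called higher and 5 lower in cPLA_2_ WT, and 0 and 7 in cPLA_2_ KO cells. Over all genes these shares were 28.2% and 28.4%, and 22.8% and 23.4%. *Ccr7* had 33397, 32199 and 33237 in confined cPLA_2_ WT libraries, after 16165.5, 15734 and 15753 in nonconfined ones, and *Cd86* rose too. In cPLA_2_ KO libraries *Ccr7* went from 17366, 15815 and 16173 to 8907, 8891 and 8957. According to the Methods the culture leaves out nonadherent granulocytes and strongly adherent macrophages. Markers of such cells were present in the libraries, and their sums differed between conditions. The sum of 9 neutrophil markers, led by *S100a9* and with none at 0, averaged 241641 in nonconfined cPLA_2_ WT cells, 353134 in nonconfined cPLA_2_ KO cells, 148487 in confined cPLA_2_ WT cells, 336414 in confined cPLA_2_ KO and 297045 and 294504 in the LPS libraries. For 5 eosinophil markers, led by *Prg2* and with none at 0, it was 30258, 71320.4, 8014, 19755, 34177 and 34304 in the same order. For 6 mast cell and basophil markers, led by *Cpa3*, it was 6962, 10190.5, 3485, 5513, 6719.9 and 6861, and for 7 macrophage markers, led by *Adgre1*, 16523, 19082, 13051, 12079, 20656 and 20437. The sum of 3 T cell markers, most of it *Cd3g*, averaged 2469, 3036, 765, 1119.9, 449 and 460.1 in that order too. B cell markers summed to at most 97.7, erythroid markers to at most 178 and natural killer cell markers to at most 9.60 in any library. The part of these cells in the results was not tested, and in bulk libraries fewer cells of a type and less RNA per cell cannot be told apart.

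The word abundant, under which these RNAs were grouped, held for some of them only. Levels of different genes were compared as normalized counts per kilobase of exon, averaged over 18 libraries, for 13495 genes with a length. For the 4 snoRNA hosts the annotated exons cover the whole entry, so a level per spliced length would be higher. They also cover the whole entry of the *Mir142hg* locus, with 1694 bases, and most of that of the *Mir17hg* locus, with 3536 bases. A level per spliced length may be higher for these 2 loci as well. *Malat1* stood at 4248 and exceeded 97.2% of these genes, and the *Neat1* locus stood at 1823 and exceeded 93.1%. *Mir155hg* at 1499 exceeded 91.6% and *Mir22hg* at 1323 exceeded 90.4%, while *Gas5* exceeded 80.2%, *Snhg1* 72.1% and the *Mir142hg* locus 66.7%. *Snhg15* at 204 exceeded 60.6% and *Snhg12* at 120.1 exceeded 50.1%, which is close to the median gene at 119.6. The *Mir17hg* locus at 61.7 lay below the median and exceeded 38.2%. These ranks pool 18 libraries and depend on the conditions. For *Mir155hg* the level per kilobase was 172 in nonconfined cPLA_2_ WT cells, 1807 in confined cPLA_2_ WT cells and 3056 under the label LPS cPLA_2_ WT, and for *Mir22hg* 411, 1509 and 1883.

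*Mir155hg*, at chr16:84509911-84512133 and the host of miR-155, had 217, 199 and 238 normalized counts in nonconfined cPLA_2_ WT libraries and 234, 209 and 188 in nonconfined cPLA_2_ KO libraries. Confined cPLA_2_ WT libraries had 2337, 2345 and 2170, and confined cPLA_2_ KO libraries had 296, 251 and 228. Each confined cPLA_2_ WT library thus lay above each nonconfined and each confined cPLA_2_ KO library, whereas the confined cPLA_2_ KO libraries overlapped the nonconfined ones of either genotype. Libraries labelled LPS cPLA_2_ WT had 3409, 4276 and 3904 and those labelled LPS cPLA_2_ KO had 4432, 4667 and 4502, all above the confined cPLA_2_ WT libraries. With confinement the log2 fold change was 3.39 ± 0.099 (SE, adjusted p = 2.30e-17) in cPLA_2_ WT and 0.29 ± 0.099 (SE, adjusted p = 0.0209) in cPLA_2_ KO cells. The call in cPLA_2_ KO cells was weak, as it fell to 0.21 (adjusted p = 0.122) without nonconfined cPLA_2_ KO replicate 3 and to 0.19 (adjusted p = 0.142) without confined cPLA_2_ KO replicate 1, was missed by edgeR at 0.27 (adjusted p = 0.0549) and had an adjusted p of 0.110 with the compared conditions fitted alone.

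The difference between these changes, which is the interaction of confinement and genotype, was -3.10 ± 0.14 (SE, adjusted p = 1.34e-13) for *Mir155hg*. Confined cPLA_2_ KO cells were lower than confined cPLA_2_ WT cells by a log2 difference of -3.15 ± 0.099 (SE, adjusted p = 1.24e-16), and nonconfined cPLA_2_ KO cells differed from nonconfined cPLA_2_ WT cells by -0.050 ± 0.099 (SE, adjusted p = 0.833), which was not called. The LPS libraries differed from nonconfined ones by 4.14 ± 0.099 (SE, adjusted p = 3.22e-19) under the label cPLA_2_ WT and 4.43 ± 0.099 (SE, adjusted p = 1.06e-19) under the label cPLA_2_ KO. Without the 3 libraries whose Y genes go against the label these were 4.29 (adjusted p = 1.25e-16) and 4.44 (adjusted p = 6.99e-19). Confined cPLA_2_ WT cells had less *Mir155hg* than the libraries labelled LPS cPLA_2_ WT, with -0.75 ± 0.099 (SE, adjusted p = 1.66e-06) and -0.91 (adjusted p = 1.53e-05) without these libraries. The libraries labelled LPS cPLA_2_ KO lay above those labelled LPS cPLA_2_ WT without overlap, but the difference of 0.24 (adjusted p = 0.906), or 0.10 (adjusted p = 0.838) without the 3 libraries, was not called. The interaction of LPS and genotype was 0.29 (adjusted p = 0.406), or 0.15 (adjusted p = 0.817) without them. From the highest group mean to the lowest the order was LPS cPLA_2_ KO, LPS cPLA_2_ WT, confined cPLA_2_ WT, confined cPLA_2_ KO, nonconfined cPLA_2_ WT and nonconfined cPLA_2_ KO, and the last 3 overlapped as neighbours.

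*Mir22hg*, at chr11:75352363-75357516, hosts miR-22, which is made in many tissues. It had 744, 813 and 815 normalized counts in nonconfined cPLA_2_ WT and 1006, 882 and 942 in nonconfined cPLA_2_ KO libraries. Confined cPLA_2_ WT libraries had 2834, 2895 and 2983 and confined cPLA_2_ KO libraries 2923, 2929 and 2871, so the confined groups overlapped each other and lay above every nonconfined library. The libraries labelled LPS cPLA_2_ WT had 3545, 3659 and 3667 and those labelled LPS cPLA_2_ KO 3745, 4496 and 4065, the highest values of this RNA. With confinement *Mir22hg* rose by a log2 fold change of 1.88 ± 0.062 (SE, adjusted p = 1.76e-16) in cPLA_2_ WT and 1.62 ± 0.062 (SE, adjusted p = 9.78e-15) in cPLA_2_ KO cells. Confined cPLA_2_ KO and cPLA_2_ WT cells differed by 0.0021 (adjusted p = 0.984), a difference that was called only under the same total, at 0.16 (adjusted p = 0.0342). Nonconfined cPLA_2_ KO libraries exceeded nonconfined cPLA_2_ WT libraries without overlap, by 0.25 ± 0.062 (SE, adjusted p = 0.0131). That call was lost without nonconfined cPLA_2_ WT replicate 1 at 0.21 (adjusted p = 0.0717), without nonconfined cPLA_2_ KO replicate 1 at 0.21 (adjusted p = 0.0851), and with the compared conditions alone at an adjusted p of 0.0656.

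The interaction of confinement and genotype for *Mir22hg* was -0.25 ± 0.087 (SE, adjusted p = 0.0375), and many settings removed the call. It was -0.063 (adjusted p = 0.594) under the same total and had an adjusted p of 0.0621 with no filter. Of the 12 libraries in it, 8 removed the call when left out. It was -0.21 (adjusted p = 0.106) without nonconfined cPLA_2_ WT replicate 1, -0.20 (adjusted p = 0.102) without nonconfined cPLA_2_ KO replicate 1 and -0.25 (adjusted p = 0.0640) without nonconfined cPLA_2_ KO replicate 3. It was -0.25 (adjusted p = 0.0609) and -0.23 (adjusted p = 0.0856) without confined cPLA_2_ WT replicates 2 and 3, and -0.26 (adjusted p = 0.0579), -0.26 (adjusted p = 0.0551) and -0.24 (adjusted p = 0.0757) without confined cPLA_2_ KO replicates 1, 2 and 3. With LPS the log2 fold change against nonconfined cells was 2.20 ± 0.062 (SE, adjusted p = 5.70e-18) under the label cPLA_2_ WT and 2.12 ± 0.062 (SE, adjusted p = 1.12e-17) under the label cPLA_2_ KO, and 2.21 (adjusted p = 1.55e-15) and 2.18 (adjusted p = 1.96e-17) without the 3 libraries whose Y genes go against the label. The difference between the LPS labels was 0.17 (adjusted p = 0.862) and the interaction of LPS and genotype -0.079 (adjusted p = 0.785). Without these libraries they were 0.22 (adjusted p = 0.198) and -0.029 (adjusted p = 0.953), and none of these was called. Confined cPLA_2_ WT cells lay below the libraries labelled LPS cPLA_2_ WT by -0.32 ± 0.062 (SE, adjusted p = 0.000184), or -0.33 (adjusted p = 0.00247) without those libraries, but by -0.031 (adjusted p = 0.682) under the same total.

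**Figure D1:**
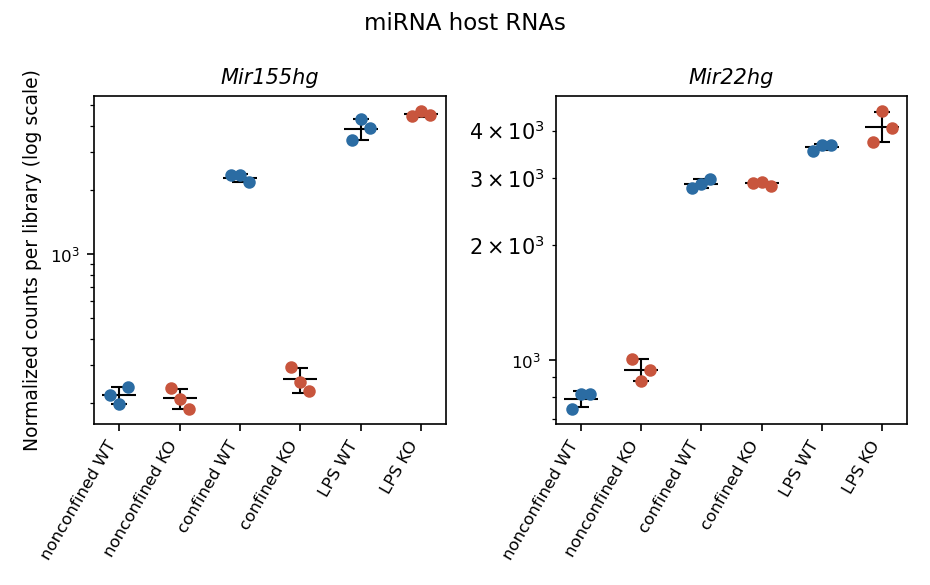
Normalized counts of *Mir155hg* and *Mir22hg* in each of the 18 libraries on a log scale, with points for libraries, blue for cPLA_2_ WT and red for cPLA_2_ KO, and bars for the group mean and SD (n = 3). *Mir155hg* was near its nonconfined level in confined cPLA_2_ KO libraries, at 228 to 296, and at 2170 to 2345 in confined cPLA_2_ WT libraries, while *Mir22hg* was at 2834 to 2983 in confined libraries of either genotype.

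The *Mir142hg* locus hosts miR-142, a miRNA of blood cells. It had 551, 449 and 431 normalized counts in nonconfined cPLA_2_ WT libraries and 658, 579.9 and 664 in nonconfined cPLA_2_ KO ones, while confined cPLA_2_ WT libraries had 343, 354 and 348 and confined cPLA_2_ KO ones 443, 443 and 470.2. Confined libraries were lower than nonconfined ones of the same genotype without overlap. Nonconfined and confined cPLA_2_ KO libraries were higher than cPLA_2_ WT libraries of the same treatment without overlap. Libraries labelled LPS cPLA_2_ WT had 363, 529 and 396, with replicate 2 the highest, and those labelled LPS cPLA_2_ KO had 451, 431 and 448. Confinement changed it on the log2 scale by -0.44 ± 0.11 (SE, adjusted p = 0.00202) in cPLA_2_ WT and -0.48 ± 0.11 (SE, adjusted p = 0.00134) in cPLA_2_ KO cells. The interaction of -0.041 (adjusted p = 0.891), or 0.15 under the same total, was not called. Confined cPLA_2_ KO cells exceeded confined cPLA_2_ WT cells by 0.37 ± 0.11 (SE, adjusted p = 0.0116).

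Nonconfined cPLA_2_ KO cells exceeded nonconfined cPLA_2_ WT cells at the *Mir142hg* locus by 0.41 ± 0.11 (SE, adjusted p = 0.0251), a call that was lost with the compared conditions alone at an adjusted p of 0.0565, without nonconfined cPLA_2_ WT replicate 2 at 0.38 (adjusted p = 0.104), cPLA_2_ WT replicate 3 at 0.35 (adjusted p = 0.127), cPLA_2_ KO replicate 1 at 0.39 (adjusted p = 0.106) or cPLA_2_ KO replicate 3 at 0.38 (adjusted p = 0.103). Relative to nonconfined cells the LPS libraries gave -0.51 ± 0.11 (SE, adjusted p = 0.000456) under the label cPLA_2_ KO and -0.16 (adjusted p = 0.224) under the label cPLA_2_ WT, which became a call without LPS cPLA_2_ WT replicate 2 at -0.32 (adjusted p = 0.00893) and under the same total at -0.67 (adjusted p = 2.91e-05). Without the 3 libraries whose Y genes go against the label these were -0.52 (adjusted p = 0.000131) and 0.16 (adjusted p = 0.329), and the interaction of LPS and genotype went from -0.35 (adjusted p = 0.373) to -0.68 (adjusted p = 0.0458). The LPS labels differed by 0.064 (adjusted p = 1.00), or -0.27 (adjusted p = 0.381) without these libraries. Confined cPLA_2_ WT against LPS cPLA_2_ WT gave -0.28 ± 0.11 (SE, adjusted p = 0.0442), which missed the threshold without LPS cPLA_2_ WT replicate 2 at -0.12 (adjusted p = 0.344), without any of confined cPLA_2_ WT replicates 1, 2 and 3 at -0.27 (adjusted p = 0.0967), -0.29 (adjusted p = 0.0737) and -0.28 (adjusted p = 0.0871), and in edgeR at -0.23 (adjusted p = 0.116). It also missed it with TMM scaling at -0.21 (adjusted p = 0.137), with no filter at an adjusted p of 0.0673 and with the compared conditions alone at 0.101. It was -0.60 (adjusted p = 0.000803) without the libraries whose Y genes go against the label, and the same total reversed it to 0.0053 (adjusted p = 0.973). The miR-142 hairpin has an entry of 64 bases inside the locus, at chr11:87647690-87647753, whose position is shared with the host. It had 49.3, 67.7 and 62.8 normalized counts in confined cPLA_2_ WT libraries, 107, 115 and 106 in confined cPLA_2_ KO libraries after 139, 127 and 105 and 177, 149 and 178 in nonconfined ones, and fell with confinement by 1.04 in cPLA_2_ WT (adjusted p = 3.28e-05) and by 0.61 in cPLA_2_ KO cells (adjusted p = 0.00715).

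The *Mir17hg* locus, which hosts the hairpins of the miR-17 cluster, was the least abundant of these RNAs per length. It had 221, 248 and 181 normalized counts in nonconfined cPLA_2_ WT and 236, 221 and 199.9 in nonconfined cPLA_2_ KO libraries. Confined cPLA_2_ WT libraries had 145, 161 and 168, below every other library, and confined cPLA_2_ KO libraries had 278, 188 and 279, with replicate 2 the lowest. The libraries labelled LPS cPLA_2_ WT had 204, 222 and 229 and those labelled LPS cPLA_2_ KO 244, 272 and 229, within or near the nonconfined range. The log2 fold change with confinement was -0.44 ± 0.15 (SE, adjusted p = 0.0142) in cPLA_2_ WT and 0.16 (adjusted p = 0.395) in cPLA_2_ KO cells. The call in cPLA_2_ WT cells was lost without nonconfined cPLA_2_ WT replicate 2 at -0.34 (adjusted p = 0.0849) or confined cPLA_2_ WT replicate 1 at -0.38 (adjusted p = 0.0588), and in cPLA_2_ KO cells a call appeared without confined cPLA_2_ KO replicate 2 at 0.35 (adjusted p = 0.0480).

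Confined cPLA_2_ KO cells exceeded confined cPLA_2_ WT cells at the *Mir17hg* locus by 0.63 ± 0.15 (SE, adjusted p = 0.00175), without overlap. The interaction of confinement and genotype was 0.60 ± 0.21 (SE, adjusted p = 0.0370), and the call was lost with no filter, where the adjusted p was 0.0555, and with TMM scaling at 0.57 (adjusted p = 0.0520). It was also lost without nonconfined cPLA_2_ WT replicates 1 or 2 at 0.58 (adjusted p = 0.0721) and 0.50 (adjusted p = 0.108), and without nonconfined cPLA_2_ KO replicates 2 or 3 at 0.61 (adjusted p = 0.0525) and 0.54 (adjusted p = 0.0916). Without confined cPLA_2_ WT replicates 1 or 2 it was 0.54 (adjusted p = 0.0871) and 0.62 (adjusted p = 0.0539), and without confined cPLA_2_ KO replicates 1 or 3 0.51 (adjusted p = 0.100) and 0.51 (adjusted p = 0.105). Nonconfined cPLA_2_ KO and cPLA_2_ WT cells differed by 0.023 (adjusted p = 0.958), or -0.011 under the same total, which was not called. The LPS labels differed by 0.18 (adjusted p = 1.00), or 0.17 (adjusted p = 0.828) without the 3 libraries whose Y genes go against the label. The interaction of LPS and genotype was 0.16 (adjusted p = 0.827), or 0.14 (adjusted p = 0.900) without them. LPS against nonconfined cells gave 0.024 (adjusted p = 0.900) and 0.18 (adjusted p = 0.290), or 0.050 (adjusted p = 0.871) and 0.19 (adjusted p = 0.340) without the 3 libraries whose Y genes go against the label, and the same total reversed the former to -0.49 (adjusted p = 0.00562) and turned the latter to -0.29. Confined cPLA_2_ WT against LPS cPLA_2_ WT gave -0.47 ± 0.15 (SE, adjusted p = 0.0122), with -0.41 (adjusted p = 0.0524) without confined cPLA_2_ WT replicate 1, -0.49 (adjusted p = 0.0817) without the libraries whose Y genes go against the label and -0.18 (adjusted p = 0.312) under the same total.

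The 4 miRNA hosts hold 9 hairpins with 17 mature miRNAs in the RefSeq table, of build GRCm38.p6, and each hairpin matched GRCm39 exactly at 1 place on its chromosome. The sequences below, in the 5′ to 3′ direction, are mature miRNAs by which these hosts are named. Also shown are the other miRNAs of the *Mir17hg* locus that share a seed, which are miR-20a-5p, miR-19a-3p and miR-19b-3p. The seed (bases 2 to 8) is in capitals. The 17 carry 15 different seeds. The seed of miR-155-5p and that of miR-22-3p occur in none of the others, while miR-17-5p shares its seed with miR-20a-5p, and miR-19a-3p with miR-19b-3p. The hairpins lie on the plus strand, and miR-155-5p is at chr16:84511031-84511053, miR-22-3p at chr11:75354598-75354619, miR-142a-3p at chr11:87647729-87647751 and miR-17-5p at chr14:115281116-115281138.
miR-155-5p: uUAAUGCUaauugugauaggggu
miR-22-3p: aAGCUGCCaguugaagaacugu
miR-142a-5p: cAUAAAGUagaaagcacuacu
miR-142a-3p: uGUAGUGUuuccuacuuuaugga
miR-17-5p: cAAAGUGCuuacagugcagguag
miR-20a-5p: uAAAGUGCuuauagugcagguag
miR-19a-3p: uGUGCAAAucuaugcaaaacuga
miR-19b-3p: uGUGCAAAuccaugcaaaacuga

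Transcripts described as targets of these miRNAs were taken from fixed lists, beside which the share of all genes called was 56.6% with confinement in cPLA_2_ WT and 46.3% in cPLA_2_ KO cells. Of 7 described miR-155 targets, 5 were higher and 2 lower in confined than in nonconfined cPLA_2_ WT cells, with a median log2 fold change of 0.80 against -0.0055 over all genes, and the counts were the same under the same total. In cPLA_2_ KO cells 3 were higher and 2 lower with a median of -0.046 against 0.010. *Cebpb*, a transcription factor, had means of 8218 ± 628 normalized counts (SD, n = 3) in nonconfined cPLA_2_ WT, 36702 ± 1883 in confined cPLA_2_ WT, 10916 ± 1433 in nonconfined cPLA_2_ KO and 29877 ± 2545 in confined cPLA_2_ KO cells. Its log2 fold change was 2.16 ± 0.082 (SE, adjusted p = 2.32e-15) in cPLA_2_ WT and 1.46 ± 0.082 (SE, adjusted p = 5.71e-12) in cPLA_2_ KO. *Jarid2*, a component of a Polycomb complex, had 1328 ± 152, 4127 ± 184, 1174 ± 79.6 and 1415 ± 48.2 in the same order, with 1.64 ± 0.069 (SE, adjusted p = 1.28e-14) in cPLA_2_ WT and 0.27 ± 0.069 (SE, adjusted p = 0.00281) in cPLA_2_ KO. *Socs1*, an inhibitor of cytokine signalling, had 4183 ± 220.1, 8232 ± 293, 4518 ± 387 and 3812 ± 132, and rose by 0.98 ± 0.061 (SE, adjusted p = 1.22e-11) in cPLA_2_ WT and fell at -0.24 ± 0.061 (SE, adjusted p = 0.00276) in cPLA_2_ KO cells. These 3 were named for the size of their change in confined cPLA_2_ WT cells.

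Of 4 described targets of the miR-17 family, 3 were higher and 1 lower in confined than in nonconfined cPLA_2_ WT cells, with a median of 0.73, and 2 were higher and 1 lower in cPLA_2_ KO cells, with a median of 0.16. *Bcl2l11*, which promotes apoptosis, had 2157 ± 126 normalized counts in nonconfined cPLA_2_ WT, 4328 ± 52.2 in confined cPLA_2_ WT, 2025 ± 156 in nonconfined cPLA_2_ KO and 2218 ± 97.5 in confined cPLA_2_ KO cells. Its log2 fold change was 1.01 ± 0.063 (SE, adjusted p = 1.16e-11) in cPLA_2_ WT and 0.13 ± 0.063 (SE, adjusted p = 0.0912) in cPLA_2_ KO cells. *Cdkn1a*, an inhibitor of the cell cycle, changed by 0.85 ± 0.042 (SE, adjusted p = 2.27e-13) and 0.18 ± 0.042 (SE, adjusted p = 0.00157), and *E2f1*, which drives S phase genes, by -1.03 ± 0.080 (SE, adjusted p = 4.53e-10) and -0.63 ± 0.080 (SE, adjusted p = 1.41e-06). In the LPS libraries these 3 moved in the same directions as in confined cPLA_2_ WT cells, with 1.60, 1.61 and -1.55 under the label cPLA_2_ WT, a comparison that shares its nonconfined libraries. Whether any miRNA acted on these transcripts was not tested.

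Of the transcripts of 13 proteins that process miRNAs or carry out their effect, 3 were higher and 7 lower in confined than in nonconfined cPLA_2_ WT cells (median -0.22) and 4 higher and 3 lower in cPLA_2_ KO cells (median 0.053). Under LPS 4 were higher and 7 lower with the label cPLA_2_ WT, and 5 higher and 7 lower with the label cPLA_2_ KO. Counts of this list are those of the authors' scaling alone, and fold changes with LPS are lower under the same total. The shares of all genes called were 56.6% and 46.3% with confinement in cPLA_2_ WT and cPLA_2_ KO cells, with medians of -0.0055 and 0.010, and 62.8% and 63.5% with LPS. *Prkra*, a partner of Dicer, had a log2 fold change of -0.83 ± 0.099 (SE, adjusted p = 2.80e-07) in confined cPLA_2_ WT cells and -0.70 ± 0.099 (SE, adjusted p = 5.04e-06) in confined cPLA_2_ KO cells, *Ago3* of 0.81 ± 0.11 (SE, adjusted p = 2.43e-06) and 0.81 ± 0.11 (SE, adjusted p = 4.59e-06), and *Ago4* of -0.73 ± 0.14 (SE, adjusted p = 0.000103) and -0.17 ± 0.14 (SE, adjusted p = 0.316). Of 13 other RNAs listed as miRNA hosts and clusters, 10 were in the table and 4 could be tested, of which 1 was higher and 1 lower with confinement in cPLA_2_ WT cells and 2 were higher and 0 lower in cPLA_2_ KO cells. Those higher were *Mirt2* in cPLA_2_ WT and *Mirt1* and *Mirt2* in cPLA_2_ KO cells, which are named for myocardial infarction and are not known as miRNA hosts, so the list holds no called host that was higher. *Mirt2* had 36.5 ± 6.62 normalized counts in nonconfined cPLA_2_ WT, 233 ± 1.51 in confined cPLA_2_ WT, 86.0 ± 6.19 in nonconfined cPLA_2_ KO and 305 ± 34.8 in confined cPLA_2_ KO cells, and rose by 2.66 ± 0.13 (SE, adjusted p = 3.30e-13) in cPLA_2_ WT and 1.81 ± 0.13 (SE, adjusted p = 4.92e-10) in cPLA_2_ KO. *Dleu2*, which hosts miR-15 and miR-16, was lower in confined cPLA_2_ WT cells by -0.27 ± 0.086 (SE, adjusted p = 0.0106) with -0.050 ± 0.086 (SE, adjusted p = 0.667) in cPLA_2_ KO cells.

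*Gas5*, at chr1:160862171-160866109, holds 9 annotated snoRNAs and is named for its rise in growth arrest. It had 2573, 2499 and 2719 normalized counts in nonconfined cPLA_2_ WT libraries and 2708, 2418 and 2593 in nonconfined cPLA_2_ KO ones, while confined cPLA_2_ WT libraries had 2886, 2633 and 2496 and confined cPLA_2_ KO ones 2292, 2036 and 2340.2. The nonconfined groups and the confined cPLA_2_ WT group overlapped, and each confined cPLA_2_ KO library lay below all 9 of these. Libraries labelled LPS cPLA_2_ WT had 1567, 1915 and 1816 and those labelled LPS cPLA_2_ KO 1748, 1911 and 1884, all below every other library. With confinement the log2 fold change was 0.039 (adjusted p = 0.683) in cPLA_2_ WT cells, which turned to -0.19 (adjusted p = 0.0308) under the same total. In cPLA_2_ KO cells it was -0.21 ± 0.074 (SE, adjusted p = 0.0237), and the call was lost without nonconfined cPLA_2_ KO replicate 1 at -0.17 (adjusted p = 0.100), nonconfined cPLA_2_ KO replicate 3 at -0.21 (adjusted p = 0.0625) or confined cPLA_2_ KO replicate 2 at -0.15 (adjusted p = 0.140).

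Confined cPLA_2_ KO cells had less *Gas5* than confined cPLA_2_ WT cells by -0.27 ± 0.074 (SE, adjusted p = 0.00685), with -0.21 (adjusted p = 0.0502) without confined cPLA_2_ WT replicate 1, -0.20 (adjusted p = 0.0518) without confined cPLA_2_ KO replicate 2 and -0.11 (adjusted p = 0.222) under the same total. The interaction of confinement and genotype was -0.25 (adjusted p = 0.0860) and not called, but it was called with TMM scaling at -0.29 (adjusted p = 0.0491), in edgeR at -0.29 (adjusted p = 0.0465) and with the compared conditions alone at an adjusted p of 0.0439. Nonconfined cPLA_2_ KO and cPLA_2_ WT cells differed by -0.014 (adjusted p = 0.946). The LPS libraries differed from nonconfined ones by -0.56 ± 0.074 (SE, adjusted p = 9.50e-07) under the label cPLA_2_ WT and -0.48 ± 0.074 (SE, adjusted p = 8.40e-06) under the label cPLA_2_ KO. These became -0.44 (adjusted p = 0.000254) and -0.44 (adjusted p = 1.39e-05) when the 3 libraries whose Y genes go against the label were left out. Confined cPLA_2_ WT cells exceeded LPS cPLA_2_ WT libraries by 0.60 ± 0.074 (SE, adjusted p = 7.44e-07), or 0.48 (adjusted p = 0.000189) without those libraries.

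*Snhg1*, at chr19:8700849-8703806 and with 8 annotated snoRNAs, had 1216, 1256 and 1195 normalized counts in nonconfined cPLA_2_ WT and 1246, 958 and 1115 in nonconfined cPLA_2_ KO libraries. Confined cPLA_2_ WT libraries had 1461, 1437 and 1449.8, the highest of all 18, and confined cPLA_2_ KO libraries had 1033, 1153 and 1193, within the nonconfined cPLA_2_ KO range. The libraries labelled LPS cPLA_2_ WT had 702, 801 and 757 and those labelled LPS cPLA_2_ KO 798, 764 and 729, the lowest of all. With confinement the log2 fold change was 0.25 ± 0.080 (SE, adjusted p = 0.0122) in cPLA_2_ WT cells, without overlap but only 0.021 (adjusted p = 0.845) under the same total. For cPLA_2_ KO cells the value was 0.031 (adjusted p = 0.780), or -0.0049 for *Snhg1* confined against nonconfined cPLA_2_ KO under the same total. The interaction was -0.21 (adjusted p = 0.180) and not called, though it reached -0.31 (adjusted p = 0.0247) without nonconfined cPLA_2_ KO replicate 2. In the confined state cPLA_2_ KO lay below cPLA_2_ WT cells by -0.37 ± 0.080 (SE, adjusted p = 0.000893), and nonconfined cPLA_2_ KO cells differed from nonconfined cPLA_2_ WT cells by -0.15 (adjusted p = 0.277). With LPS the log2 fold change against nonconfined cells was -0.70 ± 0.080 (SE, adjusted p = 1.09e-07) under the label cPLA_2_ WT and -0.53 ± 0.080 (SE, adjusted p = 6.06e-06) under the label cPLA_2_ KO. Without the 3 libraries whose Y genes go against the label these were -0.61 (adjusted p = 6.47e-05) and -0.56 (adjusted p = 8.37e-06). Confined cPLA_2_ WT cells exceeded LPS cPLA_2_ WT libraries by 0.95 ± 0.080 (SE, adjusted p = 2.54e-09), or 0.85 (adjusted p = 1.90e-06) without those libraries.

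*Snhg12*, at chr4:132035985-132038335 and with 4 annotated snoRNAs, was the least abundant member per length. Its normalized counts were 290.3, 292 and 341 in nonconfined cPLA_2_ WT libraries and 313, 264 and 345 in nonconfined cPLA_2_ KO ones, while confined cPLA_2_ WT libraries had 416, 436 and 407 and confined cPLA_2_ KO ones 424, 326 and 328. Confined cPLA_2_ WT libraries lay above the nonconfined ones, and among the confined cPLA_2_ KO libraries only replicate 1 did. The libraries labelled LPS cPLA_2_ WT had 146, 151 and 142 and those labelled LPS cPLA_2_ KO 124, 181 and 155, all below every other library. Confinement changed it on the log2 scale by 0.45 ± 0.14 (SE, adjusted p = 0.00758) in cPLA_2_ WT cells, or 0.22 (adjusted p = 0.146) under the same total. In cPLA_2_ KO cells it was 0.22 (adjusted p = 0.196), with an interaction of -0.23 (adjusted p = 0.431). Confined cPLA_2_ KO and cPLA_2_ WT cells differed by -0.23 (adjusted p = 0.190) and nonconfined ones by -0.0054 (adjusted p = 0.992), neither called. Relative to nonconfined cells the LPS libraries gave -1.06 ± 0.14 (SE, adjusted p = 5.59e-07) under the label cPLA_2_ WT and -1.01 ± 0.14 (SE, adjusted p = 1.23e-06) under the label cPLA_2_ KO. These became -1.02 (adjusted p = 3.61e-05) and -0.86 (adjusted p = 1.21e-05) when the 3 libraries whose Y genes go against the label were left out. Confined cPLA_2_ WT cells exceeded LPS cPLA_2_ WT libraries by 1.51 ± 0.14 (SE, adjusted p = 6.48e-09), or 1.47 (adjusted p = 6.55e-07) without those libraries.

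*Snhg15*, at chr11:6474542-6478762 and with 1 annotated snoRNA, was the snoRNA host that went another way under LPS. Nonconfined cPLA_2_ WT libraries had 718, 734 and 712 normalized counts and nonconfined cPLA_2_ KO libraries 866, 718 and 764. Confined cPLA_2_ WT libraries had 835, 757 and 734 and confined cPLA_2_ KO libraries 547, 605 and 649.8, and each of the latter lay below every other library. In the libraries labelled LPS cPLA_2_ WT the values were 1202, 1081 and 1032 and in those labelled LPS cPLA_2_ KO 1155, 1200.3 and 1205, all above every other library. The log2 fold change with confinement was 0.10 (adjusted p = 0.295) in cPLA_2_ WT cells, or -0.12 under the same total. In cPLA_2_ KO cells it was -0.38 ± 0.080 (SE, adjusted p = 0.000526), and the interaction was -0.48 ± 0.11 (SE, adjusted p = 0.00283). Within the confined groups cPLA_2_ KO lay below cPLA_2_ WT cells by -0.37 ± 0.080 (SE, adjusted p = 0.000842), whereas nonconfined cPLA_2_ KO and cPLA_2_ WT cells differed by 0.11 (adjusted p = 0.453).

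LPS against nonconfined cells gave 0.61 ± 0.080 (SE, adjusted p = 8.26e-07) for *Snhg15* under the label cPLA_2_ WT and 0.60 ± 0.080 (SE, adjusted p = 9.58e-07) under the label cPLA_2_ KO. Without the 3 libraries whose Y genes go against the label these were 0.58 (adjusted p = 0.000134) and 0.62 (adjusted p = 2.56e-06). These were 0.098 (adjusted p = 0.261) and 0.13 (adjusted p = 0.151) under the same total, which takes away both calls. Confined cPLA_2_ WT cells had less *Snhg15* than LPS cPLA_2_ WT libraries by -0.51 ± 0.080 (SE, adjusted p = 1.79e-05), or -0.48 (adjusted p = 0.00159) without those libraries. Between the LPS labels the log2 differences were 0.069 (adjusted p = 1.00) for *Gas5*, 0.021 (adjusted p = 1.00) for *Snhg1*, 0.052 (adjusted p = 1.00) for *Snhg12* and 0.11 (adjusted p = 1.00) for *Snhg15*. The interactions of LPS and genotype were 0.083, 0.17, 0.057 and -0.0065, with adjusted p of 0.818, 0.580, 0.947 and 0.992 in the same order, and that of *Snhg15* was 0.027 under the same total. When the 3 libraries whose Y genes go against the label were left out, the differences between the labels were -0.013 (adjusted p = 0.977), -0.10 (adjusted p = 0.778), 0.15 (adjusted p = 0.801) and 0.15 (adjusted p = 0.620), so those of *Gas5* and *Snhg1* change sign. The interactions were then 0.00084 (adjusted p = 0.999), 0.051 (adjusted p = 0.939), 0.16 (adjusted p = 0.858) and 0.041 (adjusted p = 0.952). None of the 4 hosts was called in either comparison, by limma, edgeR or DESeq2.

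**Figure D2:**
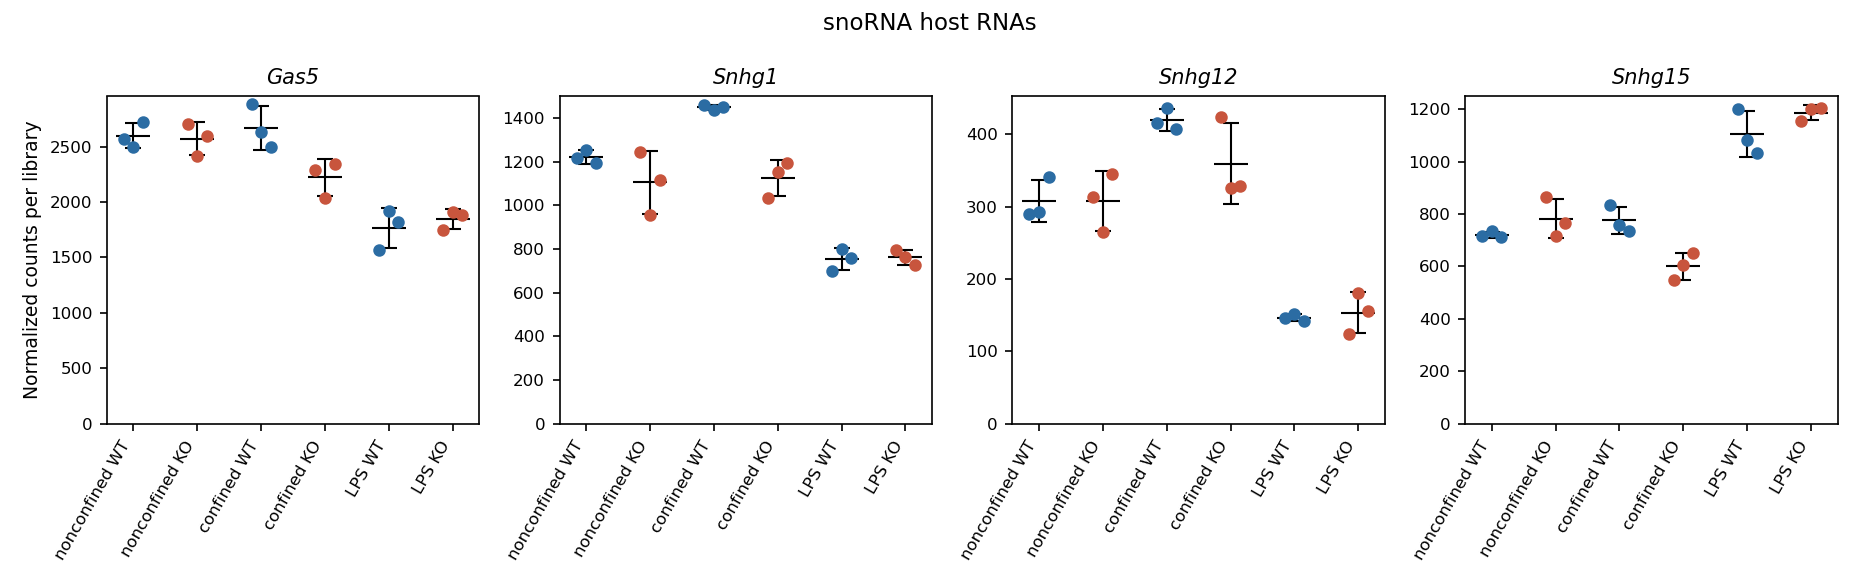
Normalized counts of *Gas5*, *Snhg1*, *Snhg12* and *Snhg15* in each of the 18 libraries, with points for libraries, blue for cPLA_2_ WT and red for cPLA_2_ KO, and bars for the group mean and SD (n = 3). Under the LPS labels *Gas5*, *Snhg1* and *Snhg12* had their lowest and *Snhg15* its highest values, from 1032 to 1205, an increase that was not called under the same total.

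The transcripts of proteins that bind snoRNAs moved in the same direction under both scalings. The transcripts of all 8 snoRNP core proteins were lower in confined than in nonconfined cPLA_2_ WT cells, with a median log2 fold change of -0.70. The same held in cPLA_2_ KO cells, with -0.47. This stands against 28.4% and 23.4% of all genes called lower and medians of -0.0055 and 0.010. All 8 were lower under the same total as well, with -0.93 and -0.51. Under LPS 8 of 8 were lower with either label, with medians of -0.64 and -0.56, against 29.4% and 30.1% of all genes called lower and medians of 0.031 and 0.024. *Dkc1*, the pseudouridine synthase of the H/ACA particle, had 1716 ± 82.0 normalized counts in nonconfined cPLA_2_ WT, 493 ± 4.70 in confined cPLA_2_ WT, 1333 ± 17.8 in nonconfined cPLA_2_ KO and 547 ± 75.4 in confined cPLA_2_ KO cells. It changed by -1.80 ± 0.13 (SE, adjusted p = 1.02e-10) with confinement in cPLA_2_ WT and -1.29 ± 0.13 (SE, adjusted p = 4.14e-08) in cPLA_2_ KO cells, *Nop56* by -1.01 ± 0.054 (SE, adjusted p = 6.64e-13) and -0.57 ± 0.054 (SE, adjusted p = 2.01e-08), and *Nop58*, its partner in the C/D particle, by -0.73 ± 0.060 (SE, adjusted p = 9.78e-10) and -0.58 ± 0.060 (SE, adjusted p = 6.68e-08). *Snhg1* and *Snhg12* thus rose in confined cPLA_2_ WT cells under the authors' scaling while these proteins' transcripts fell.

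Of 17 other snoRNA hosts named, 16 were in the table and 14 were tested. With confinement 2 were higher and 7 lower in cPLA_2_ WT cells (median -0.21 against -0.0055 over all genes) and 0 higher and 2 lower in cPLA_2_ KO cells (median -0.061). Under the same total these were 0 and 8 in cPLA_2_ WT and 0 and 2 in cPLA_2_ KO. Under LPS 1 was higher and 10 lower with the label cPLA_2_ WT (median -0.70) and 1 higher and 11 lower with the label cPLA_2_ KO (median -0.77), against 29.4% and 30.1% of all genes called lower. *Snhg11* had a log2 fold change of -0.90 ± 0.26 (SE, adjusted p = 0.00604) in confined cPLA_2_ WT cells and 0.11 ± 0.26 (SE, adjusted p = 0.771) in confined cPLA_2_ KO cells, *Snhg7* of -0.88 ± 0.30 (SE, adjusted p = 0.0164) and -0.057 ± 0.30 (SE, adjusted p = 0.897), and *Dancr* of -0.85 ± 0.25 (SE, adjusted p = 0.00659) and -0.39 ± 0.25 (SE, adjusted p = 0.217). Over all genes 28.2% were called higher and 28.4% lower with confinement in cPLA_2_ WT, and 22.8% and 23.4% in cPLA_2_ KO cells. Of the transcripts of 10 factors of nonsense-mediated decay, 5 were higher and 1 lower with confinement in cPLA_2_ WT cells (median 0.21) and 5 higher and 0 lower in cPLA_2_ KO cells (median 0.13), while under the same total the counts were 2 and 4 in cPLA_2_ WT and 5 and 0 in cPLA_2_ KO. *Smg1* changed by 0.45 ± 0.14 (SE, adjusted p = 0.00781) and 0.62 ± 0.14 (SE, adjusted p = 0.000861), and *Smg5* by 0.44 ± 0.051 (SE, adjusted p = 2.49e-07) and 0.74 ± 0.051 (SE, adjusted p = 1.47e-10) in confined cPLA_2_ WT and cPLA_2_ KO cells. The table holds 1 snoRNA entry inside *Gas5*, *Snord47*, with a mean of 11.7 normalized counts, 3 inside *Snhg12* with at most 7.97, and 0 inside *Snhg1* and *Snhg15*.

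*Malat1*, at chr19:5845718-5852702, varied widely between replicates. It had 27284, 45898 and 31773 normalized counts in nonconfined cPLA_2_ WT libraries and 21184, 24969 and 24117 in nonconfined cPLA_2_ KO ones, while confined cPLA_2_ WT libraries had 17471, 46074 and 43508 and confined cPLA_2_ KO ones 18879.8, 57508 and 36127. Replicate 1 of each confined group was far below the other 2, and the confined groups held both its lowest and its highest value. Libraries labelled LPS cPLA_2_ WT had 26969, 19989.7 and 22031 and those labelled LPS cPLA_2_ KO 27062, 21273 and 22036. The SD of its log2 values was 0.785 in confined cPLA_2_ WT cells and 0.807 in confined cPLA_2_ KO cells, above that of 90.0% and 90.5% of all genes tested, whose medians were 0.117 and 0.120. *Malat1* was called in none of the 10 limma comparisons, nor at an unadjusted p under 0.05, in edgeR or in DESeq2. With confinement the log2 fold change was -0.061 ± 0.32 (SE, adjusted p = 0.889) in cPLA_2_ WT and 0.54 ± 0.32 (SE, adjusted p = 0.176) in cPLA_2_ KO cells, and the latter became 0.96 (adjusted p = 0.0123) without confined cPLA_2_ KO replicate 1.

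The nonconfined cPLA_2_ KO libraries lay below the nonconfined cPLA_2_ WT ones for *Malat1* without overlap, but the difference of -0.55 (adjusted p = 0.333) was not called, and confined cPLA_2_ KO and cPLA_2_ WT cells differed by 0.054 (adjusted p = 0.914), with an interaction of 0.60 (adjusted p = 0.367). The LPS libraries differed from nonconfined ones by -0.58 (adjusted p = 0.119) under the label cPLA_2_ WT and -0.0027 (adjusted p = 0.995) under the label cPLA_2_ KO. These became -0.77 (adjusted p = 0.150) and -0.11 (adjusted p = 0.803) when the 3 libraries whose Y genes go against the label were left out. The value under the label cPLA_2_ WT became a call at -1.09 (adjusted p = 0.00617) with the same total and at an adjusted p of 0.0105 with the compared conditions alone. Confined cPLA_2_ WT against LPS cPLA_2_ WT gave 0.52 (adjusted p = 0.189), 0.71 (adjusted p = 0.226) without those 3 libraries, 0.81 (adjusted p = 0.0456) under the same total and 0.97 (adjusted p = 0.00847) without confined cPLA_2_ WT replicate 1. The LPS labels differed by 0.032 (adjusted p = 1.00), or 0.12 (adjusted p = 0.955) without the 3 libraries, and the interaction of LPS and genotype was 0.58 (adjusted p = 0.657), or 0.66 (adjusted p = 0.726) without them.

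The low *Malat1* of confined replicates 1 was set beside RNAs that carry no poly(A) tail. *Rn7sk*, the most abundant of 6 such RNAs, had 69.6, 193 and 174 normalized counts in confined cPLA_2_ WT libraries and 146, 229 and 185 in confined cPLA_2_ KO libraries, with replicate 1 the lowest in each, and 93.7, 99.8 and 107 and 166, 131 and 105 in nonconfined cPLA_2_ WT and cPLA_2_ KO libraries. *Rny3* was listed at 0 in all 18 libraries, and *Rn7sk* had 186, 109.8 and 175 and 83.8, 117 and 178 in the libraries labelled LPS cPLA_2_ WT and LPS cPLA_2_ KO. Replicate 1 labelled LPS cPLA_2_ KO had the lowest *Rn7sk* and the highest *Malat1* of these 6 libraries, at 83.8 and 27062. Replicate 1 labelled LPS cPLA_2_ WT had the highest *Rn7sk* and the next highest *Malat1*, at 186 and 26969. Without the former library, the order of the LPS libraries was the same for both RNAs. In the nonconfined groups the order was not the same. Nonconfined cPLA_2_ KO replicate 1 had the highest *Rn7sk* and the lowest *Malat1* of its group, at 166 and 21184. Among nonconfined cPLA_2_ WT libraries replicate 3 had the highest *Rn7sk*, at 107, and replicate 2 the highest *Malat1*, at 45898. The part of poly(A) selection or RNA quality in *Malat1* was not tested. Of the 6 RNAs without a tail 4 were tested, of which limma called *Rmrp* (adjusted p = 0.00781) and *Terc* (adjusted p = 0.0319) lower in confined cPLA_2_ WT cells. Their means were 9.25 ± 2.49 and 15.5 ± 3.09 normalized counts in nonconfined cPLA_2_ WT cells. In confined cPLA_2_ WT cells they were 1.22 ± 1.06 and 4.87 ± 4.74, too low for a fold.

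The *Neat1* locus lies on the minus strand next to *Malat1* and its entry covers 92.8% of the annotated gene, so the short and the long form of *Neat1* cannot be told apart. It had 32566, 27066 and 30346 normalized counts in nonconfined cPLA_2_ WT libraries and 38333, 35611 and 37784 in nonconfined cPLA_2_ KO ones, while confined cPLA_2_ WT libraries had 33985, 35858 and 34960.5 and confined cPLA_2_ KO ones 50058, 47382 and 49007. In every nonconfined and confined cPLA_2_ KO library it exceeded the cPLA_2_ WT libraries of the same treatment, and within each genotype every confined library exceeded every nonconfined one. Libraries labelled LPS cPLA_2_ WT had 26494, 43858 and 33545, with replicate 2 above the 41002, 42553 and 41239.8 of those labelled LPS cPLA_2_ KO. The SD of its log2 values in confined cPLA_2_ WT cells was 0.0387, against 0.785 for *Malat1* in the same libraries. With confinement the log2 fold change was 0.22 ± 0.11 (SE, adjusted p = 0.0804) in cPLA_2_ WT cells, which was not called except with the compared conditions alone at an adjusted p of 0.00971, and was -0.0012 under the same total. In cPLA_2_ KO cells it was 0.39 ± 0.11 (SE, adjusted p = 0.00483), with an interaction of 0.17 (adjusted p = 0.468) that was not called.

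Confined cPLA_2_ KO cells exceeded confined cPLA_2_ WT cells at the *Neat1* locus by 0.48 ± 0.11 (SE, adjusted p = 0.00101). The nonconfined groups, without overlap, differed by 0.32 (adjusted p = 0.0719), a call only with the compared conditions alone at an adjusted p of 0.0313. With LPS the log2 fold change against nonconfined cells was 0.18 (adjusted p = 0.148) under the label cPLA_2_ WT, with 0.36 (adjusted p = 0.000581) without LPS cPLA_2_ WT replicate 1, 0.33 (adjusted p = 0.00903) with the LPS libraries as 1 group, 0.55 (adjusted p = 1.58e-06) without the 3 libraries whose Y genes go against the label and the reversed -0.33 (adjusted p = 0.0123) under the same total. Under the label cPLA_2_ KO it was 0.16 (adjusted p = 0.199), or 0.013 (adjusted p = 0.924) with the LPS libraries as 1 group, 0.17 (adjusted p = 0.0152) without those libraries, an adjusted p of 0.0172 with the compared conditions alone, and the reversed -0.32 (adjusted p = 0.0155) under the same total. Between the LPS labels the difference was 0.29 (adjusted p = 0.862), or 0.48 (adjusted p = 0.0388) without LPS cPLA_2_ WT replicate 2 and -0.066 (adjusted p = 0.789) without the 3 libraries, so no direction is given for it either. The interaction of LPS and genotype was -0.021 (adjusted p = 0.978), or -0.38 (adjusted p = 0.0495) without the 3 libraries and 0.013 under the same total. Confined cPLA_2_ WT against LPS cPLA_2_ WT gave 0.043 (adjusted p = 0.767), 0.33 (adjusted p = 0.0166) under the same total, 0.23 (adjusted p = 0.0172) without LPS cPLA_2_ WT replicate 2 and the reversed -0.33 (adjusted p = 0.00121) without the 3 libraries, so no direction is given for it.

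**Figure D3:**
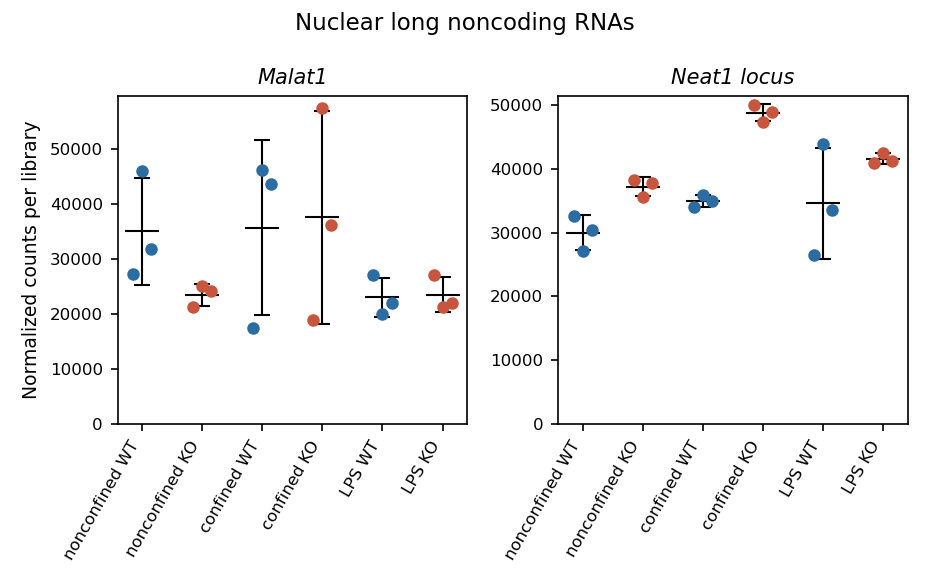
Normalized counts of *Malat1* and the *Neat1* locus in each of the 18 libraries, with points for libraries, blue for cPLA_2_ WT and red for cPLA_2_ KO, and bars for the group mean and SD (n = 3). *Malat1* ranged from 17471 to 46074 within the confined cPLA_2_ WT group, and the *Neat1* locus from 33985 to 35858 in the same 3 libraries.

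Of the transcripts of 11 paraspeckle proteins, 2 were higher and 5 lower with confinement in cPLA_2_ WT cells (median -0.13) and 0 higher and 6 lower in cPLA_2_ KO cells (median -0.20), or 1 and 9 in cPLA_2_ WT and 0 and 7 in cPLA_2_ KO under the same total. Over all genes 28.2% were called higher and 28.4% lower in cPLA_2_ WT and 22.8% and 23.4% in cPLA_2_ KO cells. Under LPS 7 were higher and 0 lower with either label, against 33.4% of all genes called higher with each, which turned to 0 higher with 8 and 5 lower under the same total. *Taf15* changed by 0.38 ± 0.061 (SE, adjusted p = 2.05e-05) with confinement in cPLA_2_ WT and -0.31 ± 0.061 (SE, adjusted p = 0.000250) in cPLA_2_ KO cells, with an interaction of -0.69 ± 0.087 (SE, adjusted p = 2.41e-06). *Sfpq* changed by -0.34 ± 0.040 (SE, adjusted p = 2.34e-07) and -0.40 ± 0.040 (SE, adjusted p = 5.46e-08), and the entry of *Rbm14*, which it shares with *Rbm4* and *Gm21992*, by -0.28 ± 0.052 (SE, adjusted p = 8.67e-05) and -0.20 ± 0.052 (SE, adjusted p = 0.00368). Of the transcripts of 10 speckle and SR proteins, 2 were higher and 5 lower with confinement in cPLA_2_ WT cells (median -0.12) and 1 higher and 4 lower in cPLA_2_ KO cells (median 0.018), or 0 and 6 in cPLA_2_ WT and 1 and 4 in cPLA_2_ KO under the same total, beside the same shares of all genes. *Srsf6* had log2 fold changes of -0.46 ± 0.046 (SE, adjusted p = 2.04e-08) and -0.24 ± 0.046 (SE, adjusted p = 0.000205), *Srsf1* of -0.44 ± 0.043 (SE, adjusted p = 1.80e-08) and -0.32 ± 0.043 (SE, adjusted p = 2.64e-06) and *Srsf3* of 0.29 ± 0.049 (SE, adjusted p = 3.80e-05) and 0.044 ± 0.049 (SE, adjusted p = 0.495) in confined cPLA_2_ WT and cPLA_2_ KO cells.

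Of 18 other long noncoding RNAs named, 17 were in the table and 15 were tested. With confinement 7 were higher and 4 lower in cPLA_2_ WT cells and 8 higher and 3 lower in cPLA_2_ KO cells, and under LPS 7 were higher and 3 lower with the label cPLA_2_ WT and 6 and 3 with the label cPLA_2_ KO. These counts are given under the authors' scaling only, and the same total lowers fold changes with LPS. Over all genes 28.2% were called higher and 28.4% lower with confinement in cPLA_2_ WT, 22.8% and 23.4% in cPLA_2_ KO, and 33.4% and 29.4%, and 33.4% and 30.1%, with LPS under the labels cPLA_2_ WT and cPLA_2_ KO. *Ptgs2os2*, antisense to *Ptgs2*, had 90.6 ± 13.9 normalized counts in nonconfined cPLA_2_ WT, 572 ± 38.7 in confined cPLA_2_ WT, 73.5 ± 15.3 in nonconfined cPLA_2_ KO and 134 ± 2.45 in confined cPLA_2_ KO cells. Its log2 fold change was 2.65 ± 0.14 (SE, adjusted p = 5.35e-13) in cPLA_2_ WT and 0.88 ± 0.14 (SE, adjusted p = 2.31e-05) in cPLA_2_ KO cells, with an interaction of -1.78 ± 0.20 (SE, adjusted p = 3.72e-07), on the side of that of *Mir155hg*. *Ptgs2os* was at 0 to 0.983 normalized counts in nonconfined cPLA_2_ WT, 0 to 1.86 in nonconfined cPLA_2_ KO and 0 to 2.13 in confined cPLA_2_ KO libraries, too low for a fold, and at 71.1 to 109.8 in confined cPLA_2_ WT libraries. *Lncpint* changed by 1.37 ± 0.41 (SE, adjusted p = 0.00738) in confined cPLA_2_ WT cells and 1.09 ± 0.41 (SE, adjusted p = 0.0351) in confined cPLA_2_ KO cells, from a nonconfined cPLA_2_ WT mean of 7.04 ± 2.43.

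Counted over the 7 members, confinement in cPLA_2_ WT cells called 4 (*Snhg1*, *Snhg12*, *Mir155hg* and *Mir22hg*), against 56.6% of all genes tested. All 4 were higher, against 28.2% of genes called higher and 28.4% called lower, and 2 of them (*Mir155hg* and *Mir22hg*) changed by more than 1 on the log2 scale, against 19.0%. Under the same total *Snhg1* and *Snhg12* were not called and *Gas5* was called as lower. The median over the 7 was 0.25, against -0.0055 over all genes. Confinement in cPLA_2_ KO cells called 4 as well, 2 higher (*Mir155hg* and *Mir22hg*) and 2 lower (*Gas5* and *Snhg15*), against 46.3% of genes called, 22.8% higher and 23.4% lower. Only *Mir22hg* changed by more than 1, against 12.0% of genes, and the median was 0.22 against 0.010. The count in cPLA_2_ KO cells was 2 without nonconfined cPLA_2_ KO replicate 3, and 3 in edgeR.

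The interaction of confinement and genotype was called for 3 of the 7 (*Snhg15*, *Mir155hg* and *Mir22hg*), all with a lower change in cPLA_2_ KO cells, against 25.8% of all genes, and beyond 1 on the log2 scale for *Mir155hg*, against 7.67%. Under the same total *Mir22hg* was not called, which leaves 2 of 7, beside 4741 genes higher and 1962 lower of 17875, so the count stands above or below the share of all genes with the scaling. The median over the 7 was -0.25, against 0.051 over all genes. In nonconfined cells cPLA_2_ KO differed from cPLA_2_ WT in 1 of 7 (*Mir22hg*), against 8.88% of genes, and in none beyond 1, against 1.15%. That count was 0 without nonconfined cPLA_2_ WT replicate 1, without nonconfined cPLA_2_ KO replicate 1 and with the compared conditions alone, and 1 in edgeR and DESeq2. In confined cells cPLA_2_ KO differed from cPLA_2_ WT in 4 of 7 (*Gas5*, *Snhg1*, *Snhg15* and *Mir155hg*), each lower in cPLA_2_ KO, against 39.4% of genes, and beyond 1 only in *Mir155hg*, against 10.1%. Under the same total *Gas5* was not called and *Mir22hg* was called as higher in cPLA_2_ KO, so the shared direction rests on the authors' scaling. The median was -0.27, against 0.041 over all genes, and these comparisons share libraries with each other.

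LPS against nonconfined cells called 6 of 7 under the label cPLA_2_ WT, against 62.8% of all genes. Of the 6, 3 were higher (*Snhg15*, *Mir155hg* and *Mir22hg*), against 33.4% of genes, and 3 lower (*Gas5*, *Snhg1* and *Snhg12*), against 29.4%, and *Snhg12*, *Mir155hg* and *Mir22hg* changed by more than 1, against 27.4%. Under the label cPLA_2_ KO the same 6 members were called, against 63.5% of genes, 3 higher against 33.4% and 3 lower against 30.1%, with 3 beyond 1 against 27.9%. Under the same total *Snhg15* was not called with either label, and *Malat1* was called as lower with the label cPLA_2_ WT. With the LPS libraries as 1 group, and without the 3 libraries whose Y genes go against the label, 6 of 7 were called in each of these comparisons. Confined cPLA_2_ WT against LPS cPLA_2_ WT called 6 of 7, against 48.9% of genes, 3 higher in confined cells (*Gas5*, *Snhg1* and *Snhg12*) and 3 lower, with *Snhg12* beyond 1 against 13.8%. It called 6 with either of these settings too, and under the same total *Mir22hg* was not called and *Malat1* was called as higher.

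Between the LPS labels limma called 0 of 7 members and 0% of all genes, with 0% beyond 1 on the log2 scale. At an unadjusted p under 0.05 there were 2 members (*Mir155hg* and *Mir22hg*) and 890 genes, and edgeR and DESeq2 called 0 genes each. Without the 3 libraries whose Y genes go against the label 0 members and 535 genes were called. The interaction of LPS and genotype was called by limma for 0 of 7 members, against 1.28% of all genes and 0.274% beyond 1. At an unadjusted p under 0.05 there were 0 members and 2232 genes, edgeR and DESeq2 called 0 members with 264 and 433 genes, and without the 3 libraries 0 members and 218 genes were called. A p that misses the threshold does not show that the labels are alike.

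The genes with the most similar pattern over the 6 condition means were sought among 10415 genes with a single symbol and a mean of at least 100 normalized counts, by the root mean square difference of centred log2 values. For *Mir155hg* they were *Vash1*, *Ccdc184* and *Gm9895* (root mean square difference 0.254 to 0.318), and *Vash1* had means of 88.2, 54.8, 595, 81.9, 1048 and 1088 normalized counts in nonconfined cPLA_2_ WT, nonconfined cPLA_2_ KO, confined cPLA_2_ WT, confined cPLA_2_ KO, LPS cPLA_2_ WT and LPS cPLA_2_ KO libraries. For *Mir22hg* they were *Blvrb*, *Ninj1* and *Ampd3* (root mean square difference 0.0773 to 0.121), with *Blvrb* at 2259.8, 2769.5, 7842, 9048, 11127 and 11230 in the same order. Nearest to *Gas5* were *Klhl5*, *Alkbh4* and *Cd164* (root mean square difference 0.0443 to 0.0528), to *Snhg1* *Mars1*, *Actr1b* and *Uck2* (root mean square difference 0.0569 to 0.0673), to *Snhg12* *Pck2*, *Lpxn* and *Gpr171* (root mean square difference 0.0819 to 0.0887) and to *Snhg15* *Paqr3*, *Syngr2* and *Smarce1* (root mean square difference 0.0423 to 0.0600). Nearest to *Malat1* were *Evi5*, *Zfp369* and *Cep83os* (root mean square difference 0.0896 to 0.101), against a root mean square of 0.269 for the pattern of *Malat1* itself. For the loci the nearest were *Copz2*, *Dnlz* and *Znrd2* (root mean square difference 0.0591 to 0.0758) for *Mir142hg*, *Gigyf1*, *Jrkl* and *Cklf* (root mean square difference 0.0867 to 0.101) for *Neat1* and *N6amt1*, *Pnisr* and *Zfp511* (root mean square difference 0.0596 to 0.0897) for *Mir17hg*. Each distance rests on 6 means, which include the LPS groups as labelled.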

How the data were processed

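Bulk RNA-seq of cPLA_2_ WT and cPLA_2_ KO DCs was analysed in 18 libraries of 6 conditions. The deposited signal values are gene counts that the authors obtained with STAR 2.7.5a on mm39, featureCounts 1.5.0 and the FAST DB annotation and divided by DESeq2 size factors (R 3.5.3). Whole reads were recovered for 100% of values (tolerance 0.001). Values were analysed as log2(normalized count + 1) in limma 3.58.1 (R 4.3.3) with a trend, 1 mean per condition and no further term, for 10 comparisons, for genes with 10 or more normalized counts in 3 or more libraries. Adjustment was by Benjamini-Hochberg over all genes tested, and the pipeline was tested on simulated data. For confined against nonconfined cPLA_2_ WT cells limma called 10113 genes and, on the recovered reads, edgeR 4.0.16 (quasi-likelihood) called 10102 and DESeq2 1.42.0 called 10270. Also run were the same total per library, TMM scaling, pseudocounts of 0.5 and 5, a filter of 100 and none, the compared conditions alone, a replicate block and each library left out. Members and lists were chosen with earlier results of these data known. Named genes are the members, *Pla2g4a* and the Y genes, up to 3 per list with the largest absolute log2 fold change among those called in confined against nonconfined cPLA_2_ WT cells, and the 3 most similar genes per member. Figures were drawn with matplotlib 3.10.9.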

Additional observations from a re-analysis of the deposited data

Results flagged for a closer look

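The change with confinement differed between cPLA_2_ WT and cPLA_2_ KO cells, by a test of the difference itself in limma, for 3 members and 1 locus. *Mir155hg* had a log2 change of 3.39 in cPLA_2_ WT cells and of 0.29 in cPLA_2_ KO cells, a difference of -3.10 (adjusted p = 1.34e-13). For *Snhg15* this was 0.10 in cPLA_2_ WT cells and -0.38 in cPLA_2_ KO cells, a difference of -0.48 (adjusted p = 0.00283). These 2 were called under every alternative run. For *Mir22hg* it was 1.88 and 1.62, a difference of -0.25 (adjusted p = 0.0375), which was -0.063 under the same total per library and lost its call there, with no filter and in 8 of 12 cases of a library left out. At the *Mir17hg* locus it was -0.44 and 0.16, a difference of 0.60 (adjusted p = 0.0370), a call lost with TMM scaling, with no filter and in 8 of 12 cases of a library left out. Genotype and sex of the libraries cannot be told apart in these differences. Of the markers, 8 of 9 for neutrophils were higher, 6 of 8 for DCs lower, 3 of 6 for mast cells and basophils higher and 1 lower, and 0 of 5 for eosinophils called in the same interaction. Over all 17875 genes 1823 were higher and 2796 lower in it, or 4741 and 1962 under the same total. The part of the marked cells was not tested.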

How the results depend on the processing

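The 100 results for members and loci, by comparison, were recomputed under each alternative. Of the values obtained, 1641 kept their direction and their side of the threshold, 70 changed sign without a call in either setting, 58 lost and 25 gained a call, and 6 reversed. Pseudocounts of 0.5 and 5 and the filter of 100 changed none of them. Under the same total per library *Gas5* in confined against nonconfined cPLA_2_ WT cells became -0.19, the *Mir142hg* locus in confined against LPS cPLA_2_ WT 0.0053, the *Neat1* locus -0.33 and -0.32 with LPS in cPLA_2_ WT and cPLA_2_ KO, and the *Mir17hg* locus -0.49 with LPS in cPLA_2_ WT, as this scaling shifts all fold changes between groups whose totals differ. The *Neat1* locus in confined against LPS cPLA_2_ WT became -0.33 without the LPS libraries whose Y genes go against the label. The cause was not tested. Leaving out 1 library gave 2 to 4 members called with confinement in cPLA_2_ KO cells and 0 to 1 in nonconfined cPLA_2_ KO against cPLA_2_ WT cells, where the compared conditions alone gave 0. Replicate numbers were not taken to pair the libraries, since residual correlations of libraries with the same number were not above 0.1 for every number in any comparison. They ranged from -0.064 to 0.18 in confined against nonconfined cPLA_2_ WT cells, and were highest between confined cPLA_2_ KO and confined cPLA_2_ WT cells, at 0.040 to 0.34, so shared handling of some replicates is not excluded. A replicate block left 4 members called there and moved no count of members called, while the *Mir17hg* locus interaction had an adjusted p of 0.0532 and the *Mir142hg* locus in confined against LPS cPLA_2_ WT one of 0.0604. Shares of calls depend on the scaling.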
